A study of Mus musculus with 12 samples.

Results

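The genes described here encode the subunits of voltage-gated calcium channels and the calcium/calmodulin-dependent (CaM) kinases with their close relatives. They were chosen by name: every non-control probe whose gene name begins with Cacna, Cacnb, Cacng or Camk, which gave 40 genes of the 29608 named on the array, or 66 probes of 39429. Their expression was measured in the cortex of 12 female mice in 3 groups of 4, named MRL/lpr, Fn14ko and MRL/+, all adult, about 12 weeks old and in diestrus. The question asked of each pair of groups was whether these genes differed in a mouse model of neuropsychiatric lupus, and whether they differed when the TWEAK receptor Fn14 was missing.

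MRL/lpr mice carry the lpr loss-of-function mutation of Fas on the MRL background. Fn14ko mice (Fn14koMRL in the labels) are MRL/lpr littermates from a backcross that lack Fn14, which Tnfrsf12a encodes, so they carry lpr as well. MRL/+ mice (MRL/MpJ in the labels) share the MRL background with intact Fas and were bought from another breeder than the other groups, so breeder and Fas genotype cannot be told apart. RNA came from whole cortex, in which fewer cells of a type and less RNA per cell cannot be told apart.

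In a neuron, voltage-gated calcium channels open on depolarization and let calcium in, and calmodulin passes this signal to the CaM kinases, which act on synapses and on transcription. A channel consists of a pore-forming alpha1 subunit, which sets its type, with an auxiliary beta subunit inside the membrane and an alpha2delta subunit outside it. Several members of the gamma family act instead as partners of AMPA glutamate receptors and are called TARPs. Among the kinases, the CaM kinase kinases activate CaMKI and CaMKIV, whereas CaMKII, abundant at synapses, activates itself and is held back by small inhibitor proteins.

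Of the 35 of these genes that could be tested, 11 differed between MRL/lpr and MRL/+ after adjustment over all genes tested (limma), against 14.4% of all genes. They were 7 higher and 4 lower in MRL/lpr, beside 6.03% and 8.37% of all genes, and 6 genes passed when the 2 MRL/+ mice labelled with the dye Cy5 were left out, against 5.03% of all genes. The higher ones were Camkk2 (CaM kinase kinase 2), Camk4, Camk1g, the CaMKII inhibitor Camk2n1, the beta subunit gene Cacnb4, the T-type pore gene Cacna1g and the TARP gene Cacng2. The lower ones were Cacna1h, another T-type pore gene, with Cacnb2, Cacng5 and Cacng6. Between MRL/lpr and Fn14ko, 7 genes differed, against 4.57% of all genes. Between Fn14ko and MRL/+ 0 of 35 passed, beside 0.954% of all genes. An unadjusted p under 0.05 (limma) was reached by 9 of the 35, beside 3790 of all 17302 genes.

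The following sequences are those of probes behind 6 of these genes, those whose difference passed the threshold in both comparisons of MRL/lpr, and they show which stretch of each gene was measured. Each probe is 60 bases long and its first 30 bases are given, 5′ to 3′, in lower case throughout because no base is singled out. Positions are those of mouse build mm9 in the deposited files. Whether a probe lies in an exon, an intron or a UTR was not determined here. Only retained probes are shown, and Camkk2 has a pair of them, both shown because they gave different results. Other probes of Cacnb2 and Cacng2 were too dim to be retained.
Cacnb2, chr2:14907912-14907971, plus strand: tcaaaagctgtttgggtagctgccatctca
Cacnb4, chr2:52289964-52290023, minus strand: cgacataggctttgaggctgccgaaacaaa
Cacng2, chr15:77825290-77825349, minus strand: ccacaggctatgcggggggaaaatataacc
Cacng5, chr11:107736263-107736322, minus strand: aacttttgtcaatgttattaacacctgtga
Camk2n1, chr4:138013368-138013427, plus strand: atctttgaatgaaccccattttaaagcaga
Camkk2, chr5:123187482-123187541, minus strand: tcctggtaaagaccatgattcgaaagcgct
Camkk2, chr5:123183273-123183332, minus strand: tgcgagcattcctcagctgtggtggtagag

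Signals below are intensities on an Agilent 2-colour array, corrected for background and divided by the median retained spot of the same dye channel, so that 1 is the median spot of that mouse. Each array carried 2 mice of a single group, with the dye Cy3 for replicates 1 and 3 and Cy5 for the others. Because every group had a slide to itself, effects of the slide and of the group cannot be told apart. After dim and marked spots were left out, 17302 genes were tested, among them 35 of the 40 channel and kinase genes, represented by 51 of their 66 probes. No probe's level can be set against that of another, so only differences between groups are read for each gene. The 5 genes without a tested value were the pore genes Cacna1b, Cacna1e and Cacna1f and the gamma genes Cacng1 and Cacng8, whose probes lay under 2 times the background in 1 to 9 mice. Cacna1b was not well above background in any MRL/lpr or Fn14ko mouse, and Cacng1 was so in 1 Fn14ko mouse alone.

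Some measures of array quality and tissue makeup differed between single mice or between whole groups, beside the results below. In the MRL/+ mice labelled with Cy5, replicates 2 and 4, the scanner software called only 35.0% and 21.2% of spots well above background, where the lowest share in another mouse was 56.6%, and the negative controls read 6.12 and 6.31 times the background there, against 1.13 to 2.65 elsewhere. The RNA matched the labelled tissue in that all 5 excitatory neuron markers were measured in all mice, while their summed signal was 30.2 to 37.6 in MRL/lpr, 40.9 to 62.2 in Fn14ko and 49.2 to 72.9 in MRL/+. The blood markers Hba-a1, Hbb-b1 and Alas2 summed to 91.3 to 230 in MRL/lpr, 32.9 to 95.2 in Fn14ko and 24.3 to 46.8 in MRL/+, most of it Hba-a1. The other hemoglobin gene, Hbb-b1, did not follow the sum. Its log2 fold change with respect to MRL/+ was 0.42 (adjusted p = 0.449, limma) in MRL/lpr and −1.02 (adjusted p = 0.179) in Fn14ko. Markers of neighbouring tissue were present as well. The 5 striatal markers tested summed to 12.6 to 22.2 in MRL/lpr, 9.12 to 97.6 in Fn14ko and 7.40 to 10.01 in MRL/+, the highest being Fn14ko replicate 1, and leaving that mouse out ended none of the calls of the channel and kinase genes between MRL/lpr and Fn14ko. The 4 choroid plexus markers, Ttr foremost, summed to 6.02 to 96.2, 11.7 to 172 and 14.8 to 258 in the same groups, with wide ranges that overlapped. Leaving out a single mouse does not test the part of striatal tissue. The part of blood, striatum and choroid plexus in the results was not tested. The targeted gene Tnfrsf12a gave 1.86, 1.57, 1.90 and 1.38 in MRL/lpr, 0.739, 0.777, 0.604 and 0.655 in Fn14ko and 1.02, 1.18, 0.943 and 1.28 in MRL/+, lowest in all Fn14ko mice, with no overlap between any of the groups. Its log2 fold change between MRL/lpr and Fn14ko was 1.27 (adjusted p = 0.00287, limma). Whether this probe lies inside the deleted part was not determined.

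Stretches of the MRL/lpr arrays were also bright as a whole. A spot was counted as lying in such a stretch where the median log2 signal of up to 14 spots around it exceeded that of the other arrays of the same dye by 2 or more. This held for 813 and 967 spots of MRL/lpr replicates 1 and 2, for 611 and 746 spots of replicates 3 and 4, for 1 spot of MRL/+ replicate 2, and for 0 spots of any other mouse. Inside the stretches the negative controls, which match no mouse gene, had a median of 3512 and 4953 intensity units in MRL/lpr replicates 1 and 2 and of 11504 and 19775 in replicates 3 and 4, whereas outside it was 27.3 to 54.7. After marked, dim and control spots were left out, 653 spots in such stretches remained, or 2.69% of those retained.

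Of the channel and kinase spots, 5 lay in these stretches: the spots of Cacnb3, Cacng7, Cacna1a and Camk2d on the array of MRL/lpr replicates 1 and 2, and a spot of Cacna1d on that of replicates 3 and 4. Around them the signal was raised by 2.63 to 5.27 on the log2 scale, whereas around all other channel and kinase spots the shift was from −1.40 to 1.33. A negative control within the surroundings of the Cacng7 spot read 18305 and 32553 intensity units in replicates 1 and 2, against 32.2 and 55.7 in the matching mice of the other MRL/lpr array. Therefore, values of Cacng7, Cacna1a, Camk2d and Cacna1d are given with and without those spots, while Cacnb3, with a single probe, has no value without its spot. None of the genes past the threshold had such a spot.

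**Figure D1:**
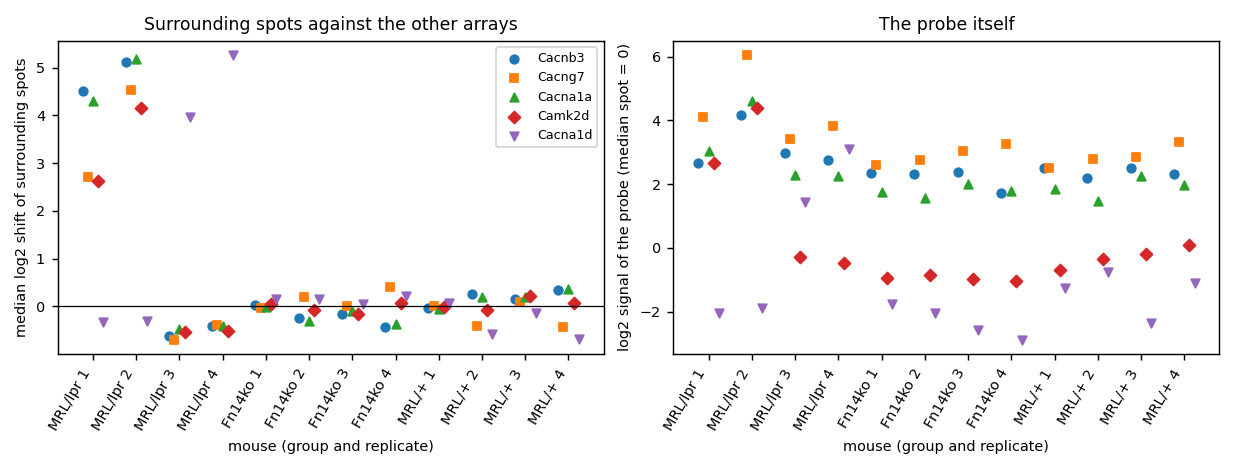
For the 5 spots in bright stretches, the left panel gives the median log2 shift of the surrounding spots relative to the other arrays of the same dye, and the right panel the log2 signal of the probe (median spot = 0), in each mouse (horizontal axis). In the left panel the points at 2.63 to 5.27 belong to MRL/lpr replicates 1 and 2 for Cacnb3, Cacng7, Cacna1a and Camk2d and to replicates 3 and 4 for Cacna1d.

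Between MRL/lpr and MRL/+, 11 of the 35 genes tested passed the threshold, which is 31.4%, against 14.4% of all 17302 genes (limma, adjusted p under 0.05). Higher in MRL/lpr were 7, beside 6.03% of all genes called higher, and lower were 4, beside 8.37% called lower. The median log2 fold change was 0.45 over the 35 genes, against −0.10 over all genes. Without overlap between the groups, 10 genes were higher and 5 lower in MRL/lpr, where the corresponding shares of all genes were 10.8% and 13%. When the spots in bright stretches were left out, 34 genes could be tested, 14 passed (9 higher, 5 lower) against 17.7% of all genes, and the median was 0.34. Without overlap, 10 were then higher and 7 lower, against 12.2% and 12% of all genes. When the MRL/+ Cy5 mice were left out instead, 6 passed against 5.03% of all genes.

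**Figure D2:**
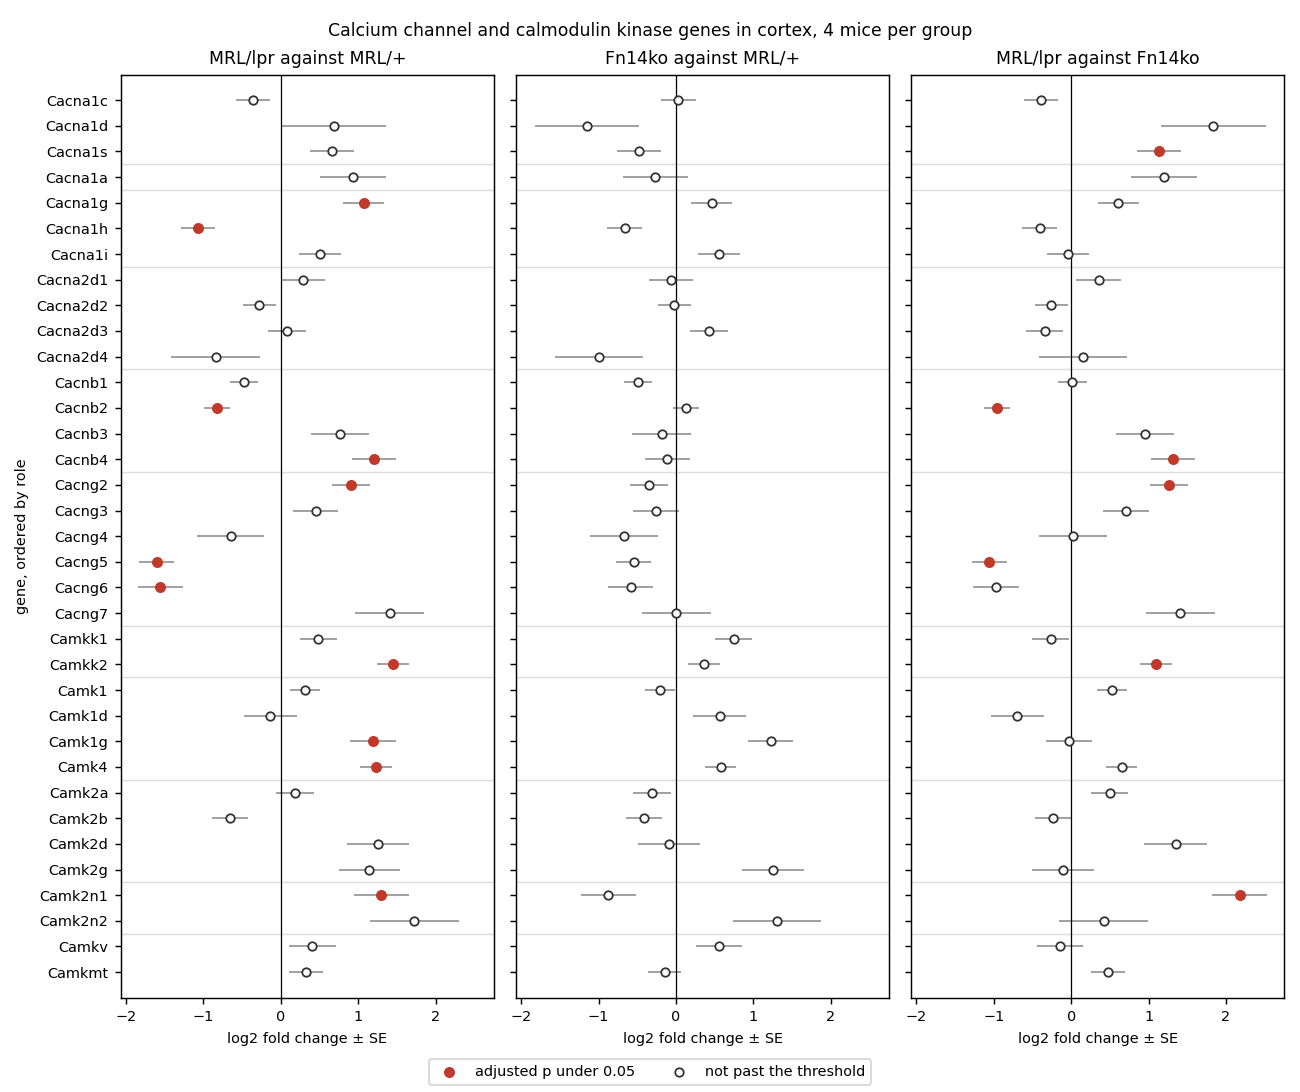
Log2 fold change of each tested gene (vertical axis, ordered by role, with grey lines between roles) in the 3 comparisons (panels), with bars of 1 standard error, where filled points passed the limma threshold. In the first panel 11 genes passed, in the second 0 and in the third 7.

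The kinase that starts the CaMKI and CaMKIV branch, Camkk2, had the smallest adjusted p-value of the kinase genes. Camkk2 signal was 18.8, 14.2, 12.8 and 15.3 in MRL/lpr replicates 1 to 4, 7.50, 7.43, 7.08 and 6.39 in Fn14ko, and 5.09, 4.36, 7.33 and 5.71 in MRL/+. Every MRL/lpr mouse lay above every other mouse, whereas Fn14ko and MRL/+ overlapped. Its log2 fold change with respect to MRL/+ was 1.45 ± 0.208 (SE, n = 4 per group, adjusted p = 0.0012, limma), and with respect to Fn14ko it was 1.09 (adjusted p = 0.00978). Fn14ko with respect to MRL/+ gave 0.36 (adjusted p = 0.294).

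This result rests on the probe at chr5:123183273-123183332, which gave 35.9, 27.6, 24.7 and 29.3 in MRL/lpr against 9.11, 7.88, 13.3 and 10.3 in MRL/+. The log2 fold change was 1.55 (adjusted p = 0.000997 over probes, limma). The probe at chr5:123187482-123187541 gave 1.69, 0.723, 0.974 and 1.23 in MRL/lpr and 1.08, 0.843, 1.36 and 1.11 in MRL/+, with overlapping groups and a log2 fold change of 0.03 (adjusted p = 0.957). The files assign these probes to different Camkk2 transcripts, and the mean of a gene follows its brightest probe. Camkk1, the other CaM kinase kinase, gave log2 fold changes of 0.48 (adjusted p = 0.166) in MRL/lpr and 0.75 (adjusted p = 0.128) in Fn14ko with respect to MRL/+ (limma). It passed in Fn14ko under some other settings, among them background subtraction, loess scaling and the fit without the array block.

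Camk4 encodes CaMKIV, a kinase found mostly in neuronal nuclei that phosphorylates CREB. Its signal was 2.54, 2.83, 2.42 and 2.68 in MRL/lpr, 2.34, 1.41, 1.56 and 1.49 in Fn14ko, and 1.04, 1.07, 1.19 and 1.16 in MRL/+. The groups did not overlap, with Fn14ko between the others. The log2 fold change of MRL/lpr with respect to MRL/+ was 1.23 ± 0.201 (SE, adjusted p = 0.00253, limma), that of Fn14ko 0.58 (adjusted p = 0.15) and that of MRL/lpr with respect to Fn14ko 0.65 (adjusted p = 0.0918). Of its 3 probes, 1 rose by 1.6 (adjusted p = 0.00127), while the others gave 0.56 (adjusted p = 0.079) and −1.49 (adjusted p = 0.0556). The last of these was well above background in 2 of 4 MRL/lpr and 2 of 4 MRL/+ mice, and averaging the probes on the log2 scale in place of the linear one gave Camk4 a value of 0.22, which did not pass. The MRL/lpr signals of the probe at −1.49 also lay below the lowest retained signals of MRL/+ replicates 1, 2 and 4.

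Camk1g encodes a membrane-bound form of CaMKI. It gave 7.96, 7.12, 6.41 and 5.92 in MRL/lpr, 9.57, 6.74, 6.70 and 5.39 in Fn14ko, and 3.76, 2.28, 5.27 and 1.74 in MRL/+. Both groups that carry lpr lay above all MRL/+ mice, and they overlapped each other almost completely. The log2 fold changes were 1.19 ± 0.296 (SE, adjusted p = 0.0196, limma) for MRL/lpr and 1.22 ± 0.296 (adjusted p = 0.0677) for Fn14ko with respect to the same MRL/+ mice, and −0.03 (adjusted p = 0.976) between MRL/lpr and Fn14ko. The lowest values were those of the MRL/+ Cy5 mice. Without them the first value was 0.75 (adjusted p = 0.119), and without MRL/+ replicate 4 alone it was 0.93 (adjusted p = 0.0875). It also failed with the processed signal, among other settings, and over the settings it ranged from 0.34 to 1.79. Camk1 and Camk1d did not pass in any comparison. For Camk1, 8 spots of 1 probe were retained, and within a mouse they varied with a coefficient of variation of 9.53% to 44.8%, a direct measure of the error of a single spot.

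Of the CaMKII genes, none of 4 passed as a gene. Camk2d, like the pore genes Cacna1a and Cacna1s below, is described because the study lists it, there as lower in MRL/lpr than in MRL/+, which is opposite in direction to the gene values with all retained spots given here. Camk2d, the delta form, gave 3.61, 8.22, 2.74 and 1.78 in MRL/lpr, 1.08, 1.46, 1.36 and 1.61 in Fn14ko and 0.981, 1.40, 1.58 and 2.05 in MRL/+. MRL/lpr lay above Fn14ko in all mice but overlapped MRL/+, and the values of replicates 1 and 2 include a spot in a bright stretch. Its log2 fold change with respect to MRL/+ was 1.26 (adjusted p = 0.0533, limma), and without that spot it was 0.51 (adjusted p = 0.207), with 2.31, 1.90, 3.78 and 2.36 in MRL/lpr against 1.16, 1.71, 1.92 and 2.56 in MRL/+.

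Camk2a and Camk2b, the abundant alpha and beta forms, each had a probe that was lower in MRL/lpr and a brighter probe that was not past the threshold. The lower Camk2a probe gave 0.529, 0.432, 0.568 and 0.659 in MRL/lpr, 0.625, 0.619, 0.496 and 0.450 in Fn14ko and 1.29, 1.06, 1.08 and 0.982 in MRL/+. All 8 mice that carry lpr lay below all MRL/+ mice, by −1.02 on the log2 scale in MRL/lpr (adjusted p = 0.00556, limma over probes) and −1.02 in Fn14ko (adjusted p = 0.0306). The brighter Camk2a probe gave 0.30 (adjusted p = 0.42) and −0.23 (adjusted p = 0.568). For Camk2b, the dimmer probe fell by 0.99 in MRL/lpr (adjusted p = 0.0137) and the brighter gave −0.63 (adjusted p = 0.085). Camk2g gave 1.15 (adjusted p = 0.0701) in MRL/lpr and 1.26 (adjusted p = 0.126) in Fn14ko with respect to MRL/+.

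The largest difference past the threshold was that of a CaMKII inhibitor. Camk2n1, which binds and blocks active CaMKII, gave 25.7, 22.5, 18.0 and 33.6 in MRL/lpr, 4.51, 3.34, 9.52 and 5.80 in Fn14ko and 7.84, 8.10, 12.7 and 11.7 in MRL/+. MRL/lpr lay above all other mice, and 3 of 4 Fn14ko mice lay below all MRL/+ mice. MRL/lpr differed from MRL/+ by 1.30 ± 0.356 (SE, adjusted p = 0.0299, limma) and from Fn14ko by 2.18 ± 0.356 (adjusted p = 0.00427). For Fn14ko with respect to MRL/+, the value was −0.88 (adjusted p = 0.191). Without the MRL/+ Cy5 mice the value of MRL/lpr with respect to MRL/+ was 1.34 (adjusted p = 0.154). It also failed without MRL/lpr replicate 1 (1.28, adjusted p = 0.0593) or 4 (1.08, adjusted p = 0.0563), and when MRL/+ replicate 4 was dropped (1.33, adjusted p = 0.127).

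Camk2n2, the other inhibitor, gave 40.8, 26.9, 24.5 and 22.1 in MRL/lpr, 16.4, 21.2, 32.7 and 16.4 in Fn14ko and 14.7, 4.98, 25.1 and 2.73 in MRL/+. The groups overlapped, and the MRL/+ Cy5 mice held the lowest values. Its log2 fold change of 1.72 with respect to MRL/+ was the largest of the 35 genes but had an SE of 0.575 and did not pass (adjusted p = 0.0612, limma). The pseudokinase gene Camkv and the calmodulin methyltransferase gene Camkmt passed in no comparison, with log2 fold changes of 0.41 and 0.33 in MRL/lpr with respect to MRL/+.

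**Figure D3:**
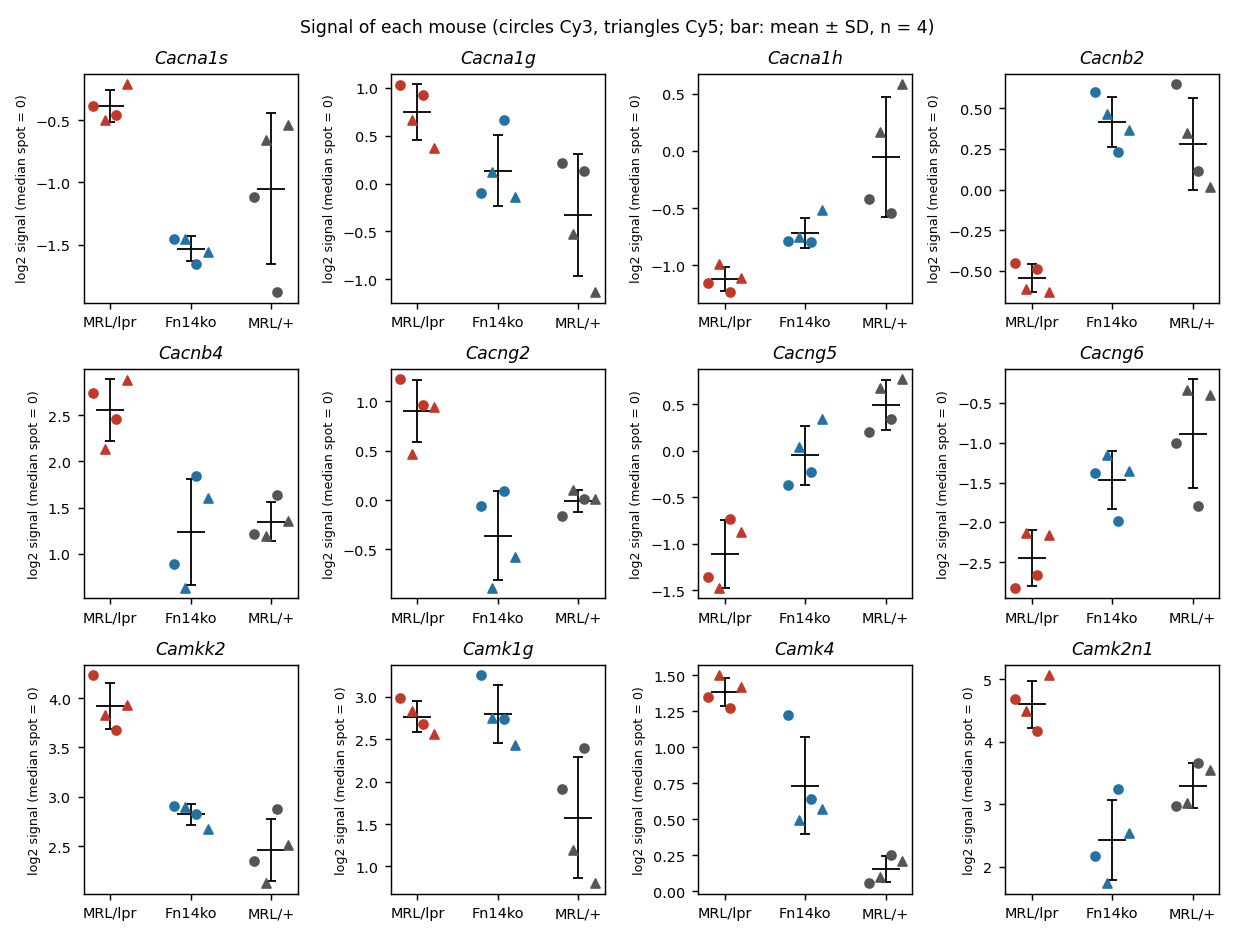
Signal of each gene past the threshold in at least 1 comparison (vertical axis, log2, median spot = 0) in each mouse by group (horizontal axis), with circles for Cy3 and triangles for Cy5 mice and bars for the mean ± SD of 4 mice. MRL/lpr mice lie apart from all others for Cacna1s, Cacna1h, Cacnb2, Cacnb4, Cacng2, Cacng5, Cacng6, Camkk2, Camk4 and Camk2n1.

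Among pore subunits, the T-type (CaV3) genes, whose channels open near the resting potential, contained both directions. Cacna1g, encoding CaV3.1, gave 2.03, 1.58, 1.90 and 1.29 in MRL/lpr, 0.932, 1.09, 1.58 and 0.909 in Fn14ko and 1.16, 0.692, 1.10 and 0.455 in MRL/+. MRL/lpr lay above MRL/+ without overlap and overlapped Fn14ko. The log2 fold change with respect to MRL/+ was 1.07 ± 0.264 (SE, adjusted p = 0.0188, limma), and both of its probes passed, at 1.01 (adjusted p = 0.00727) and 1.15 (adjusted p = 0.0359). Its probes were well above background in 2 of 4 MRL/+ mice, and without the MRL/+ Cy5 mice the value was 0.76 (adjusted p = 0.17). Without MRL/+ replicate 4 alone it was 0.87 (adjusted p = 0.114).

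Cacna1h, encoding CaV3.2, gave 0.451, 0.505, 0.425 and 0.462 in MRL/lpr, 0.579, 0.593, 0.577 and 0.698 in Fn14ko and 0.747, 1.12, 0.688 and 1.5 in MRL/+. MRL/lpr lay below all other mice, and the highest values were those of the MRL/+ Cy5 mice. With respect to MRL/+ its log2 fold change was −1.07 ± 0.226 (SE, adjusted p = 0.00967, limma), and −0.71 (adjusted p = 0.0603) without those mice. All 3 probes were lower in MRL/lpr, at −1.20, −1.68 and −0.92, of which the probe at −1.68 passed (adjusted p = 0.00881). The probes at −1.20 and −1.68 were well above background in 2 of 4 MRL/lpr and 2 of 4 MRL/+ mice, and that at −0.92 in all 8 of these. The MRL/lpr signals of the probes at −1.20 and −1.68 also lay below the lowest retained signals of MRL/+ replicates 1, 2 and 4. The probe at −1.68 also passed with respect to Fn14ko, at −1.75 (adjusted p = 0.014), while the gene did not, at −0.41 (adjusted p = 0.367). Cacna1i, encoding CaV3.3, gave 0.51 (adjusted p = 0.191).

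Of the L-type (CaV1) genes, Cacna1s encodes the pore of the skeletal muscle channel. Its signal was 0.765, 0.706, 0.727 and 0.864 in MRL/lpr, 0.365, 0.366, 0.318 and 0.339 in Fn14ko and 0.461, 0.631, 0.272 and 0.689 in MRL/+. MRL/lpr lay above all other mice, and all signals were below the median spot. With respect to Fn14ko the log2 fold change was 1.14 ± 0.284 (SE, adjusted p = 0.0378, limma), and it passed in 2 of the 8 fits that left out a mouse. That with respect to MRL/+ was 0.66 (adjusted p = 0.122), and that of Fn14ko with respect to MRL/+ was −0.48 (adjusted p = 0.301). Its retained probe was well above background in 2 of 4 MRL/+ mice. Another Cacna1s probe was left out as under 2 times the background in 5 mice. Of 5 skeletal muscle markers, Ckm, Myh4, Tnnt3 and Mylpf were too dim to be tested, and Acta1 ranged from 0.806 to 1.41 in MRL/lpr, 0.576 to 0.723 in Fn14ko and 0.674 to 1.24 in MRL/+.

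Cacna1d, encoding CaV1.3, gave 0.299, 0.342, 1.55 and 4.48 in MRL/lpr, 0.318, 0.301, 0.180 and 0.251 in Fn14ko and 0.583, 0.660, 0.450 and 0.614 in MRL/+. The high MRL/lpr values were those of replicates 3 and 4, where 1 of its probes lay in a bright stretch. With that spot included, no comparison passed, with 0.68 (adjusted p = 0.469, limma) for MRL/lpr and −1.15 (adjusted p = 0.297) for Fn14ko with respect to MRL/+. The other probe alone, after the bright stretches were left out, gave 0.369, 0.427, 0.401 and 0.434 in MRL/lpr, 0.340, 0.359, 0.193 and 0.364 in Fn14ko and 0.740, 0.723, 0.699 and 0.767 in MRL/+. All 8 mice that carry lpr then lay below all MRL/+ mice, and the log2 fold changes were −0.85 (adjusted p = 0.0223) in MRL/lpr and −1.27 (adjusted p = 0.0129) in Fn14ko. This probe was well above background in 2 of 4 MRL/+ mice. Cacna1c, encoding CaV1.2, gave −0.36 (adjusted p = 0.248) and 0.03 (adjusted p = 0.931).

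Cacna1a, encoding the P/Q-type pore CaV2.1 of presynaptic terminals, was the only CaV2 gene tested. Its signal was 4.69, 12.4, 2.93 and 2.93 in MRL/lpr, 2.06, 1.94, 2.26 and 1.97 in Fn14ko and 2.42, 1.91, 3.22 and 2.48 in MRL/+. The raised values of MRL/lpr replicates 1 and 2 include the spot in a bright stretch. The log2 fold changes of MRL/lpr were 0.94 (adjusted p = 0.138, limma) with respect to MRL/+ and 1.20 (adjusted p = 0.143) with respect to Fn14ko. The probe outside the stretch gave 1.17, 0.629, 0.997 and 1.06 in MRL/lpr and 1.25, 1.06, 1.63 and 1.09 in MRL/+, and the fold change with respect to MRL/+ then turned to −0.40 (adjusted p = 0.268).

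**Figure D4:**
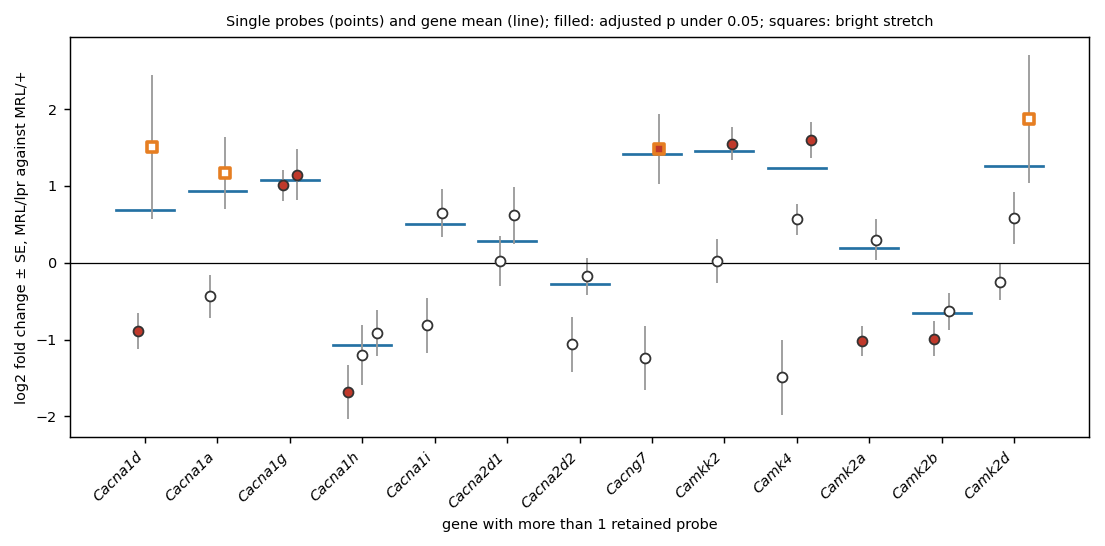
Log2 fold change of MRL/lpr with respect to MRL/+ ± 1 standard error (vertical axis) for each probe of the genes with more than 1 retained probe (horizontal axis), with the gene mean as a line, filled points past the threshold and squares for probes in bright stretches. The Camkk2 probes lie at 1.55 and 0.03, those of Camk4 at 1.6, 0.56 and −1.49, and the squares of Cacna1d, Cacna1a, Cacng7 and Camk2d above the other probes of their gene.

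The alpha2delta genes Cacna2d1 to Cacna2d4, of which the first encode the targets of gabapentin, did not pass in any comparison. Their log2 fold changes ranged from −0.84 to 0.29 in MRL/lpr and from −0.99 to 0.43 in Fn14ko with respect to MRL/+, and all 4 genes overlapped between groups in every comparison. The lowest was Cacna2d4, at −0.99 ± 0.571 (SE, adjusted p = 0.292, limma) in Fn14ko, whose probe was well above background in 50% of the Fn14ko and MRL/+ mice.

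The beta subunits, which carry the pore to the membrane and set its gating, moved in both directions. Cacnb4, the beta subunit gene mutated in the epileptic lethargic mouse, gave 6.69, 4.40, 5.49 and 7.39 in MRL/lpr, 1.85, 1.55, 3.59 and 3.03 in Fn14ko and 2.32, 2.28, 3.12 and 2.56 in MRL/+. All MRL/lpr mice lay above all others, and Fn14ko and MRL/+ overlapped. The log2 fold changes were 1.21 ± 0.287 (SE, adjusted p = 0.0164, limma) with respect to MRL/+, 1.31 ± 0.287 (adjusted p = 0.0194) with respect to Fn14ko and −0.11 (adjusted p = 0.816) for Fn14ko with respect to MRL/+. Without the MRL/+ Cy5 mice the first kept its size, at 1.21, with an adjusted p of 0.093, and without MRL/+ replicate 4 alone it was 1.19 (adjusted p = 0.0777).

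Cacnb2 gave 0.731, 0.655, 0.712 and 0.646 in MRL/lpr, 1.52, 1.38, 1.17 and 1.29 in Fn14ko and 1.57, 1.28, 1.08 and 1.01 in MRL/+. It was the reverse of Cacnb4, with all MRL/lpr mice below all others. The log2 fold changes were −0.83 ± 0.168 (SE, adjusted p = 0.00806, limma) and −0.96 ± 0.168 (adjusted p = 0.00615) with respect to MRL/+ and Fn14ko, and 0.13 (adjusted p = 0.611) for Fn14ko with respect to MRL/+. It passed without the MRL/+ Cy5 mice as well, at −0.89 (adjusted p = 0.0379). With the processed signal, among other settings, Cacnb2 passed in neither comparison of MRL/lpr, and with the Cy3 mice only it failed with respect to Fn14ko. Over the settings its value with respect to MRL/+ ranged from −1.06 to −0.52. The other Cacnb2 probes were left out as under 2 times the background in 2 and 8 mice. They were well above background in no MRL/lpr mouse. Cacnb1 did not overlap with MRL/+ in either lpr group, at −0.47 (adjusted p = 0.0976) and −0.49 (adjusted p = 0.174). The single probe of Cacnb3 lay in a bright stretch in MRL/lpr replicates 1 and 2. It gave 6.34, 17.8, 7.89 and 6.76 in MRL/lpr, 5.10, 5.01, 5.17 and 3.28 in Fn14ko and 5.64, 4.56, 5.63 and 5.01 in MRL/+, and the log2 fold change with respect to MRL/+ was 0.76 (adjusted p = 0.162). Replicates 3 and 4, outside the stretch, also lay above every mouse of the other groups.

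Of the gamma family, Cacng2 encodes stargazin, the TARP that brings AMPA receptors to the synapse. Its signal was 2.33, 1.38, 1.95 and 1.93 in MRL/lpr, 0.958, 0.539, 1.06 and 0.668 in Fn14ko and 0.891, 1.07, 1.01 and 1.01 in MRL/+. MRL/lpr lay above all other mice. The log2 fold changes were 0.91 ± 0.243 (SE, adjusted p = 0.0276, limma) with respect to MRL/+ and 1.26 ± 0.243 (adjusted p = 0.0103) with respect to Fn14ko, and −0.35 (adjusted p = 0.36) for Fn14ko with respect to MRL/+. The first passed in 4 of the 8 fits that left out a mouse, and failed without MRL/lpr replicate 1 (0.82, adjusted p = 0.0642) or 4 (0.82, adjusted p = 0.0522), and when MRL/+ replicate 3 was dropped (0.83, adjusted p = 0.0606) or replicate 4 (1.00, adjusted p = 0.112). These values rest on a single retained probe. Another Cacng2 probe was left out as under 2 times the background in 9 mice, among them all 4 MRL/lpr mice. It was well above background in no mouse.

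Cacng5, another TARP gene, fell in MRL/lpr. It gave 0.390, 0.360, 0.603 and 0.546 in MRL/lpr, 0.776, 1.03, 0.855 and 1.27 in Fn14ko and 1.15, 1.59, 1.26 and 1.70 in MRL/+. MRL/lpr lay below all other mice, and Fn14ko lay for the most part between the other groups. The log2 fold changes were −1.6 ± 0.226 (SE, adjusted p = 0.00113, limma) with respect to MRL/+, −1.06 ± 0.226 (adjusted p = 0.0176) with respect to Fn14ko and −0.55 (adjusted p = 0.197) for Fn14ko with respect to MRL/+. Without the MRL/+ Cy5 mice the first was −1.47 (adjusted p = 0.0189).

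Cacng6, which encodes another gamma subunit, gave 0.142, 0.229, 0.159 and 0.223 in MRL/lpr, 0.383, 0.448, 0.253 and 0.392 in Fn14ko and 0.498, 0.789, 0.288 and 0.755 in MRL/+. MRL/lpr lay below all other mice, and every signal was under that of the median spot. The log2 fold change was −1.55 ± 0.292 (SE, adjusted p = 0.00529, limma) with respect to MRL/+, and −1.29 (adjusted p = 0.067) without the MRL/+ Cy5 mice. Its probe was well above background in 2 of 4 MRL/+ and 3 of 4 MRL/lpr mice. With respect to Fn14ko it was −0.97 (adjusted p = 0.0846). Cacng3 and Cacng4 gave 0.45 (adjusted p = 0.273) and −0.65 (adjusted p = 0.289) in MRL/lpr with respect to MRL/+.

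Cacng7 gave 8.73, 33.3, 5.45 and 7.13 in MRL/lpr, 3.19, 3.52, 4.14 and 4.90 in Fn14ko and 3.04, 3.77, 3.75 and 5.26 in MRL/+. All MRL/lpr mice lay above the others, but replicates 1 and 2 include a spot in a bright stretch. The log2 fold change with respect to MRL/+ was 1.41 ± 0.446 (SE, adjusted p = 0.051, limma). Its other probe alone gave 0.159, 0.208, 0.154 and 0.217 in MRL/lpr and 0.446, 0.608, 0.242 and 0.469 in MRL/+, in which MRL/lpr lay below MRL/+, and the value turned to −1.20 (adjusted p = 0.0641). The MRL/lpr signals of that probe lay below the lowest retained signals of MRL/+ replicates 1, 2 and 4. With respect to Fn14ko the values were 1.41 (adjusted p = 0.1) and −0.13 (adjusted p = 0.933).

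Among single probes, 16 of 51 passed between MRL/lpr and MRL/+ (9 higher, 7 lower), against 15% of all 22419 probes tested, 5.69% higher and 9.3% lower. The genes that gained a passing probe without passing as a gene were Cacna1d, Camk2a and Camk2b, all lower, and Cacng7, higher through the probe in a bright stretch.

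With the MRL/+ Cy5 mice left out, the genes that passed between MRL/lpr and MRL/+ were Camkk2, Camk4, Cacng2 and Cacna1s, all higher, and Cacnb2 and Cacng5, both lower. Camkk2 was then at 1.35 (adjusted p = 0.0154, limma) and Camk4 at 1.29 (adjusted p = 0.0258). Cacna1g, Cacna1h, Cacnb4, Cacng6, Camk1g and Camk2n1 no longer passed, and all 6 kept their direction.

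**Figure D5:**
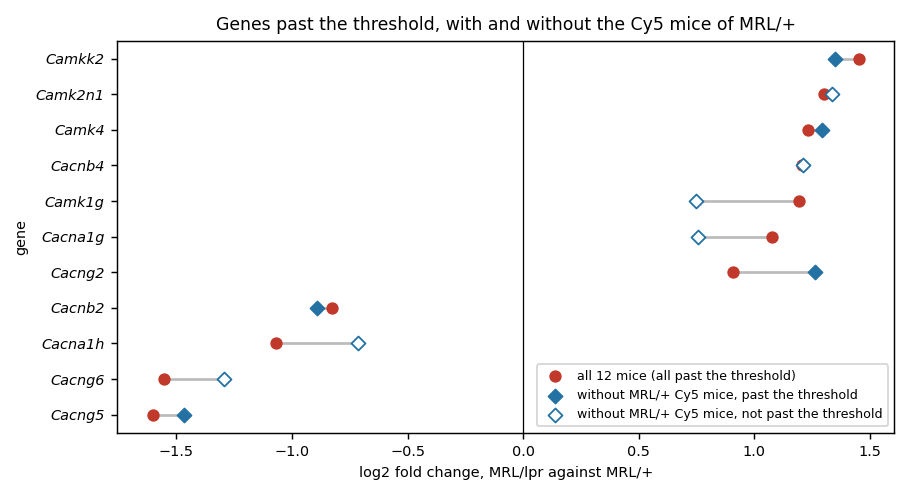
Log2 fold change of MRL/lpr with respect to MRL/+ for the genes past the threshold, with all mice and without the MRL/+ Cy5 mice (horizontal axis, log2), each gene on a line of its own. The values of Camkk2 are 1.45 and 1.35, those of Camk1g are 1.19 and 0.75, and those of Cacnb4 are 1.21 in both.

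Between MRL/lpr and Fn14ko, which both carry lpr and differ in Fn14, 7 of 35 genes passed, or 20%, against 4.57% of all genes (limma). Higher in MRL/lpr were Camk2n1, Cacnb4, Cacng2, Cacna1s and Camkk2, beside 2.58% of all genes called higher, and lower were Cacng5 and Cacnb2, beside 1.99% called lower. The median log2 fold change of the 35 genes was 0.35, against −0.07 over all genes. Without overlap, 12 genes were higher and 4 lower in MRL/lpr, where 8.91% and 11.3% of all genes were. Of the 12, Cacna1a, Cacnb3, Cacng7 and Camk2d include a spot in a bright stretch. When the spots in bright stretches were left out, 11 were higher and 4 lower without overlap, now without those 4 genes, against 10.8% and 9.37% of all genes. In that fit, 8 of 34 passed, with Camk4 added, against 6.03% of all genes, and the median was 0.14. With the MRL/+ Cy5 mice left out, which changes this comparison only through the dye term and the spread estimated over all groups, 5 of 35 passed, against 3.11% of all genes. Cacnb4 (1.31, adjusted p = 0.0648) and Cacng5 (−1.06, adjusted p = 0.0611) no longer did, at folds that had not moved. Of single probes, 8 of 51 passed (5 higher, 3 lower), against 4.03% of all probes, 2.27% higher and 1.76% lower.

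This comparison and that with MRL/+ share the MRL/lpr mice, so a value high or low in those 4 mice enters both. Of its 7 genes, Cacna1s passed in 2 of the 8 fits that left out a mouse, and failed without MRL/lpr replicate 1, 3 or 4 and without Fn14ko replicate 2, 3 or 4, at log2 fold changes of 1.05 to 1.26 over all 8 fits. Cacnb4 failed without MRL/lpr replicate 1 (1.24, adjusted p = 0.0555) or Fn14ko replicate 2 (1.19, adjusted p = 0.0734), and Cacng5 without Fn14ko replicate 2 (−1.05, adjusted p = 0.0644). Cacnb2, Cacng2, Camk2n1 and Camkk2 passed in all 8.

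Between Fn14ko and MRL/+, 0 of 35 genes passed, against 0.954% of all genes (0.237% higher, 0.717% lower, limma). At an unadjusted p under 0.05 there were 9 of 35, against 3790 of all 17302 genes. The median log2 fold change was −0.11, close to the −0.10 of all genes. Groups did not overlap for 4 genes higher and 2 lower in Fn14ko, where the shares over all genes were 7.42% and 6.09%. The highest values were those of Camk2n2 (1.31, adjusted p = 0.214), Camk2g (1.26, adjusted p = 0.126) and Camk1g (1.22, adjusted p = 0.0677), and the lowest those of Cacna1d (−1.15), Cacna2d4 (−0.99) and Camk2n1 (−0.88). At the level of probes, 2 of 51 passed, both lower, 1 each of Cacna1d (−1.26, adjusted p = 0.029) and Camk2a, against 1.09% of all probes (0.227% higher, 0.865% lower). With the bright stretches left out, 2 of 34 genes passed, Camk1g higher and Cacna1d lower, against 2.34% of all genes. With the MRL/+ Cy5 mice left out, 0 of 35 passed, against 0.0347% of all genes. Counts under further settings, given at the end, were up to 8 of 35, with background subtraction (16.4% of all genes).

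The study's measure of the spread between mice, the relative expression variability (REV, a coefficient of variation pooled over the spots of a gene and corrected for the degrees of freedom that the number of spots gives), had a median of 37.4% over the 35 genes in MRL/lpr mice, against 31.5% over all genes. In Fn14ko mice the medians were 40.9% and 36.5%, and in MRL/+ mice 47.2% and 52.1%. The highest REV in MRL/lpr, 127%, was that of Cacna1d, which has a spot in a bright stretch.

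Other genes of calcium and calmodulin signaling, a list of 68 of which 65 were tested, showed 8 higher and 5 lower in MRL/lpr with respect to MRL/+ (limma), beside 6.03% of all genes called higher and 8.37% called lower. Their median log2 fold change was −0.07, beside −0.10 over all genes. Among those past the threshold, the largest increases were those of the calcineurin regulator Rcan2 (1.98, adjusted p = 0.0036), the IP3 receptor Itpr1 (1.59, adjusted p = 0.0132), the transcription factor Mef2c (1.21, adjusted p = 0.0295) and the plasma membrane calcium pump Atp2b2 (1.20, adjusted p = 0.0375). The largest decreases past the threshold were those of Rem2, a small GTPase that inhibits calcium channels (−2.49, adjusted p = 0.000511), Stac, an adaptor protein of L-type channels whose probe was well above background in 1 of 4 MRL/lpr mice (−2.20, adjusted p = 0.000697), the store-operated channel gene Orai2 (−1.07, adjusted p = 0.0151) and the ryanodine receptor Ryr1 (−1.02, adjusted p = 0.0324).

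Rem2 signal was 0.227, 0.254, 0.251 and 0.264 in MRL/lpr, 1.16, 1.15, 0.480 and 1.03 in Fn14ko and 1.11, 1.16, 1.63 and 1.83 in MRL/+. All MRL/lpr mice lay below all others. With respect to Fn14ko, where 4.57% of all genes passed, 1 gene of the list was higher in MRL/lpr, Mef2c (1.34, adjusted p = 0.036, limma), and 4 were lower: Rem2 (−1.86, adjusted p = 0.0034), Stac (−1.69, adjusted p = 0.00431), Orai2 (−1.19, adjusted p = 0.0156) and the CaMKI-like kinase Pnck (−1.18, adjusted p = 0.0379). Between Fn14ko and MRL/+ no gene of the list passed, 0 of 65, against 0.954% of all genes.

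Some markers of several cell types also passed the threshold between MRL/lpr and MRL/+ (limma). Of all genes, 14.4% passed there, 6.03% higher and 8.37% lower, and the count for some of the lists below was no more than 1 marker. Of 5 excitatory neuron markers, Neurod6 (−1.70), Slc17a7 (−1.08) and Neurod2 (−0.95) were lower and Tbr1 (1.53) was higher. Of 6 inhibitory neuron markers, Vip (1.26) and Pvalb (1.03) were higher, and their summed signal was 65.2 to 69.9 in MRL/lpr, 64.9 to 90.3 in Fn14ko and 48.1 to 70.8 in MRL/+. Of 5 endothelial markers 2 were higher, with sums of 15.7 to 19.3 in MRL/lpr, 8.99 to 17.5 in Fn14ko and 9.12 to 12.3 in MRL/+, and of 3 blood markers 1 was higher. Of the markers of oligodendrocytes (5) and their precursors (3), 1 each was lower, and of 7 microglial markers 1 was higher. None passed of 5 astrocyte, 5 striatal, 4 choroid plexus and 2 cerebellar markers tested. Between MRL/lpr and Fn14ko, where 4.57% of all genes passed, Neurod6 (−2.11, adjusted p = 0.00766) and the oligodendrocyte marker Mobp (−1.18, adjusted p = 0.0361) were lower in MRL/lpr and Vip (1.09, adjusted p = 0.0109) was higher. The endothelial marker Slco1a4 passed between Fn14ko and MRL/+ (0.85, adjusted p = 0.0483), where 0.954% of all genes did. The part of these cell types in the values of the channel and kinase genes was not tested.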

How the data were processed

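Cortex RNA of 12 mice was hybridized to 6 Agilent arrays. The deposited scanner files, made by the authors with Agilent Feature Extraction (12.1.0.3 per the file headers), hold for every spot and dye the mean foreground intensity and median background intensity before normalization, quality marks, other feature annotation and the software's processed signal intensity. Groups came from the labels.

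Control spots, marked spots (1952) and spots under 2 times the background in any mouse (17781) were left out, leaving 24255 of 43020. Background was corrected by normexp (offset 50) in limma 3.58.1 under R 4.3.3, channels were divided by their median, spots of a gene averaged and log2 values fitted with group and dye, array as a random block (correlation 0.32) and a variance trend. Tests were 2-sided with Benjamini-Hochberg adjustment over 17302 genes and a threshold of 0.05. An exact permutation test over 70 divisions of 8 mice cannot give less than p = 0.0286, which every gene without overlap reaches. The number of arrays limits the precision: the median SE was 0.25 on the log2 scale. A simulation of MRL/lpr against MRL/+ on 17302 genes, 200 of them changed, recovered 34% of genes with a change of 1 log2 unit and 77% at 2 log2 units, called 3 unchanged genes, and called 0 where nothing was changed. The data called 2492 genes in this comparison, and the simulated noise held no slide effect and no bright stretch. These shares therefore need not hold for the data.

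Named were the genes past the threshold, the 3 highest and 3 lowest in each comparison, Cacna1a, Cacna1s and Camk2d (listed by the study), and up to 4 of the partner list in each direction. The members and lists were chosen with earlier results of these data known. Alternatives concerned the signal, scale, filters, spot merging, dye, array, samples, test and single mice. The labels name the mice as replicates, and p-values measure the spread between these mice. Gene positions relative to exons were not used here. Data were read with the data.table package (1.17.8), and figures drawn with Python 3.11.15, numpy 2.4.6, pandas 2.3.3 and matplotlib 3.10.9.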

Additional observations from a re-analysis of the deposited data

Results flagged for a closer look

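In each group of 4 mice, the highest or lowest signal of a gene was set against Dixon's 95% critical value. Of 105 sets (35 genes in 3 groups), 10 were past it, where chance gives about 1 in 20. In MRL/lpr, replicate 2 was high for Cacna1c (6.55, the others 4.67 to 4.89), Cacnb3 (17.8, the others 6.34 to 7.89) and Cacng7 (33.3, the others 5.45 to 8.73), and replicate 1 for Cacna2d2 (1.48, the others 1.22 to 1.25). The Cacnb3 and Cacng7 spots lie in a bright stretch of that array. In Fn14ko, replicate 4 was high for Cacna1h (0.698, the others 0.577 to 0.593) and low for Cacnb1 (0.487, the others 0.793 to 0.818) and Cacnb3 (3.28, the others 5.01 to 5.17). Fn14ko replicate 3 was high for Camk2g (23.1, the others 13.2 to 14.7) and replicate 1 for Camk4 (2.34, the others 1.41 to 1.56). In MRL/+, replicate 4 was high for Camk1 (1.17, the others 1.00 to 1.02).

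Bright stretches, in which spots of all kinds were raised together, held 1694 spots in all, on both MRL/lpr arrays and, for 1 spot, in an MRL/+ mouse. Negative control spots inside them were raised as well, as given above.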

How the results depend on the processing

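The counts of genes past the threshold depended on the processing, more than the directions did. Of the genes past the threshold, none turned its direction under any setting that refitted whole genes, but 1 probe of Camk4 did. Between MRL/lpr and MRL/+ (11 genes) the count was 20 with background subtraction (29.7% of all genes passed), 19 with loess and quantile scaling (28.7%) and 18 without the array block (30%). It was 6 without the MRL/+ Cy5 mice (5.03%), 3 by the methods' t-test after Benjamini-Hochberg (4.17%) and 0 without the filter on dim spots (0.0755%). Between MRL/lpr and Fn14ko (7 genes) it was 15, 11 and 12 for the first 3 settings (16.5%, 12.9% and 10.3% of all genes) and 4 with the Cy3 mice only (2.71%). It was 14 by the methods' t-test unadjusted (22.1%), 0 after Benjamini-Hochberg (1.05%) and 0 without the filter (0.11%). Between Fn14ko and MRL/+ (0 genes) it was 8, 4 and 5 for the same 3 (16.4%, 10.6% and 10.9% of all genes), 1 with the processed signal, the 75th percentile or only the groups compared (5.85%, 3.49% and 2.11%), 5 of 25 with spots well above background in all mice (11.5%), 6 by the unadjusted methods' t-test (15.2%), and 2 on single probes or without the bright stretches, the last chosen after seeing the data. Leaving out single mice gave 6 to 13, 4 to 8 and 0 to 6 genes. The lowest, 6, came without MRL/+ replicate 4, where Cacna1g, Cacnb4, Cacng2, Camk1g and Camk2n1 were lost. The lowest of 4 came without Fn14ko replicate 2, and the highest of 6 without MRL/+ replicate 3. For the fits that left out a mouse no share of all genes is given, so these counts do not show whether all genes moved alike.

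With a replicate block the counts between MRL/lpr and MRL/+, MRL/lpr and Fn14ko, and Fn14ko and MRL/+ were 19, 11 and 5 (36.4%, 11.4% and 11.6% of all genes). This fit has no array block, and without either block they were 18, 12 and 5. The labels tie mice of different groups by number alone. Correlations of the deviations of same-numbered mice were 0.08 to 0.34, −0.13 to 0.28 and −0.03 to 0.72, and 6, 3 and 4 of 8 mice correlated best with their own number. Same-numbered mice also share a dye, which was not removed from these deviations, so the correlations cannot show whether the mice were paired.

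Values that turned, among the genes named by rule in each comparison, were, between MRL/lpr and MRL/+, Cacna1a (−0.40 without the bright stretches, −0.44 for 1 probe), Cacng7 (−1.20 and −1.24), Camk2d (−0.25 for 1 probe) and Camk4 (−1.49 for 1 probe), and with respect to Fn14ko, Cacng7 (−0.13 and −0.18). Outside that rule, between MRL/lpr and MRL/+ and among values past the threshold after turning, Cacna1d turned from 0.68 to −0.85 without the bright stretches, and Camk2a from 0.19 to −1.02 for 1 probe. Between Fn14ko and MRL/+ they were Cacna1a (0.46 without the filter), Cacna1s (0.49 with the processed signal, 0.025 with loess, 0.15 without the filter), Cacna2d4 (0.010 with loess), Camk2d (0.028 with the processed signal, 0.58 without the filter, 0.0035 without the bright stretches, 0.081 for 1 probe) and Camk2n2 (−0.17 with the processed signal). For the values of named genes, 499 stayed on their side of the threshold with the same direction, 67 moved past it, 67 fell short of it and 18 turned, over all settings but those that left out a mouse.

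The partner list of 65 tested genes had 13, 0 and 5 past the threshold, against 14.4%, 0.954% and 4.57% of all genes. The order is MRL/lpr and MRL/+, Fn14ko and MRL/+, and MRL/lpr and Fn14ko. It gave 24, 9 and 13 with background subtraction (29.7%, 16.4% and 16.5% of all genes). With loess it gave 20, 6 and 10 (28.7%, 10.6% and 12.9%). With the processed signal it gave 4 between Fn14ko and MRL/+ (5.85% of all genes) and 8 between MRL/lpr and Fn14ko (10.9%). Between Fn14ko and MRL/+ it gave 3 with the 75th percentile (3.49%) and 4 with spots well above background (11.5%). Without the filter it gave 0 in both comparisons of MRL/lpr (0.0755% and 0.11%). Its median moved to −0.30 and −0.27 with respect to MRL/+ with the 75th percentile and to 0.52 and 0.66 without the filter, in MRL/lpr and Fn14ko. The cause of these shifts was not tested. Signal over background limits Cacna1d, Cacna1g, Cacna1s, Cacna2d4, Cacng4, Cacng6 and Camkmt most, whose retained probes were well above background in 2 of 4 MRL/+ mice.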
